A study of Ovis aries with 9 samples.

Results

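Autophagy and lysosome genes were measured in ovine granulosa cells (GCs), the somatic cells of the ovarian follicle, cultured at 3 glucose levels. The set held 39 gene symbols, chosen by name for their role, and 34 of them had a row in a gene table of 39157 genes. The list was drawn up with earlier results of these data known. No symbol had more than 1 row. The other 5 (UVRAG, PIK3R4, WIPI1, MAP1LC3B and CTSD) were not matched by symbol and were not analysed here, so MAP1LC3B, which encodes an LC3 protein, and CTSD, which encodes cathepsin D, are missing from the values below. All 34 genes passed the filter on low values and were tested.

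The cells came from thin-tailed Han sheep. GCs from small follicles of abattoir ovaries were pooled over animals and cultured for 48 h, then kept for 8 h without glucose and without serum, which all groups shared. They were then cultured for 24 h with 0 mM glucose (CON), 8.4 mM glucose (LOW) or 33.6 mM glucose (HIGH). Each group had 3 RNA libraries, 9 in all, and since nothing in the labels ties a library to an animal, p-values measure the spread between these libraries.

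In autophagy a membrane sheet grows around cytoplasm, closes and fuses with the lysosome, where acid enzymes digest the contents. A kinase complex around ULK1 and ULK2 starts the process when nutrients or energy are short, and it is held back by the nutrient sensor mTORC1 and activated by the energy sensor AMPK. The transcription factors TFEB and TFE3 raise the transcription of many autophagy and lysosome genes. In the ovary, GCs use autophagy during follicle growth and atresia. Much of the pathway is controlled through proteins, so messenger levels do not measure autophagic flux.

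Levels are FPKM, fragments counted per kilobase of transcript relative to all fragments of a library, divided by a scaling factor for each library (scaled FPKM). By the factors of the deposited gene read-count values an FPKM of 1 would stand for 48.0 to 71.3 fragments per kilobase, depending on the library, which is an approximate depth. The groups were compared with limma, a linear model fitted to all genes, on log2(scaled FPKM + 0.1). A gene was called at a Benjamini-Hochberg (BH) adjusted p below 0.05 over the 24364 genes tested. Fold changes on this scale understate the change of genes near the pseudocount.

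The labelled cell type was only partly visible in its markers. Of 12 GC markers, 9 were matched (AMH, CYP19A1 and FOXL2 were not), and 5 of these had a mean of 1 scaled FPKM or more. GJA1 had a mean of 50.7, INHA of 12.8 and NR5A1 of 10.4, while FSHR, the receptor for follicle-stimulating hormone, had 0.413. All 9 markers of stroma and smooth muscle were abundant, with summed levels between 4790 and 6889 in CON, between 5561 and 6010 in LOW and between 4678 and 6135 in HIGH. LUM had a mean of 2036, TAGLN of 1848 and ACTA2 of 847. The 11 macrophage markers had sums between 17.9 and 23.8 in CON, between 18.7 and 21.4 in LOW and between 16.9 and 19.7 in HIGH, and 2 of them (CD68 and CD14) had a mean of 1 or more. The 4 theca markers matched summed to at most 3.33 and the 5 endothelial markers to at most 1.01 (CDH5 was at 0 in all libraries), and of the erythrocyte markers only ALAS2 was matched, at 0. In such bulk samples fewer cells of a type and less RNA per cell cannot be told apart, which holds for every level below.

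The machinery was well expressed in all 3 groups. The mean level of the 34 genes ran from 0.664 scaled FPKM for ATG101 to 420 for CTSK, with a median of 15.3. The median gene of the set stood at the 85.5th percentile of all genes tested. The 7 genes with a mean above 100 were CTSK, GABARAPL1, CTSB, SQSTM1, GABARAP, LAMP1 and LAMP2. These held 79.2% of the summed level, and CTSK alone held 20.6%. At the other end 13 genes had a mean below 10, among them the kinases ULK1 (5.96) and ULK2 (8.11) and the regulator TFEB (1.96). The abundant messengers were thus those of lysosomal components, of ATG8 proteins and of the cargo receptor SQSTM1, and those of the kinases that start autophagy were far lower.

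**Figure D1:**
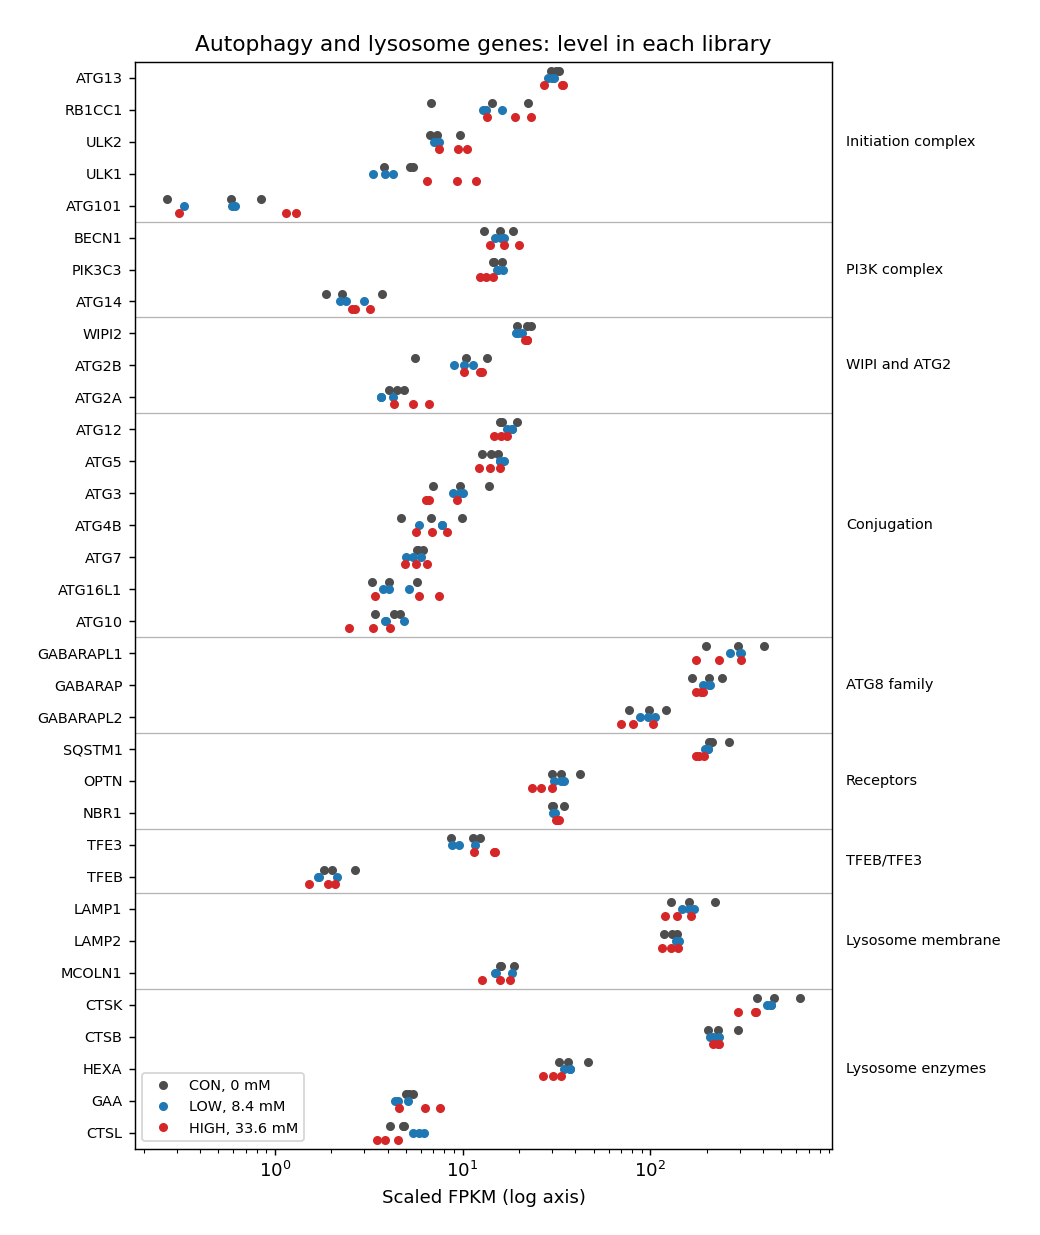
Scaled FPKM (log axis) of the 34 autophagy and lysosome genes in 9 libraries, ordered by role; each point is 1 library, grey for CON (0 mM glucose), blue for LOW (8.4 mM) and red for HIGH (33.6 mM). Most genes overlap between groups; ULK1 is the gene whose HIGH libraries (6.47 to 11.8) lie above all 6 others.

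No gene of the set was called in any comparison. In LOW versus CON 0 of 34 passed, beside 0.00821% of all genes tested, and the smallest adjusted p of a member was 1.00. In HIGH versus CON 0 of 34 passed, with the same background of 0.00821% and a smallest adjusted p of 0.651. In HIGH versus LOW 0 of 34 passed, again beside 0.00821%, with a smallest adjusted p of 0.565. The limma F-test for any difference between the 3 groups called 0 of 34, beside 0.0123% of all genes, with a smallest adjusted p of 0.707. Over the whole table each comparison called 2 genes, drawn from 3 features without a gene symbol (ENSOARG00000012662, ENSOARG00000008115 and XLOC_077652), so the test as a whole made few calls in these libraries.

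Counts at an unadjusted p below 0.05 were as follows. In LOW versus CON 1 of 34 passed, beside 1.83% of all genes; this was CTSL, higher in LOW (higher were 0.923% of all genes and lower 0.903%). In HIGH versus CON 5 passed, or 14.7% of the set, beside 6.76% of all genes. Of these ULK1 was higher in HIGH (beside 4.09% of all genes), while SQSTM1, OPTN, CTSK and HEXA were lower (beside 2.67%). In HIGH versus LOW 4 passed, or 11.8% of the set, beside 7.66% of all genes, with ULK1, ATG2A and TFE3 higher (beside 5.21%) and CTSL lower (beside 2.45%). The F-test gave 2 (ULK1 and CTSL), beside 5.44%. The comparisons with HIGH share the HIGH libraries and the comparisons with CON share the CON libraries, so their counts are not independent. The counts also turned on single libraries. Over the 19 alternative fits HIGH versus CON gave 0 to 11 genes, with 11 without CON replicate 1 (26.1% of all genes), 10 without HIGH replicate 3 (13.7%), 1 without HIGH replicate 1 (3.20%), 1 without CON replicate 3 (4.05%) and 0 without CON replicates 1 and 3 (3.95%). The count in HIGH versus LOW also changed between these fits.

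Fitted differences went both ways within the set. The median log2 fold change of the 34 genes was -0.04 in LOW versus CON, with 13 higher and 21 lower, while the median over all genes tested was 0.01. For HIGH versus CON the median was -0.04, with 15 higher and 19 lower, beside 0.07 over all genes. For HIGH versus LOW it was -0.02, with 16 higher and 18 lower, beside 0.06 over all genes. These splits moved with the scaling, since in HIGH versus CON 11 were higher without scaling and 18 with upper-quartile scaling, and in HIGH versus LOW 19 and 18 were. In at least 1 of the 19 alternative fits the sign turned for 25 of 34 genes in LOW versus CON, 14 in HIGH versus CON and 6 in HIGH versus LOW. Filters, the replicate block, summed rows and the groups in the fit cannot change a fitted difference. Nor can leaving out a library of the group not compared. The 19 fits are thus fewer checks of a direction or size than their number, here and below. In LOW versus CON the median without scaling was -0.14. The contrast with all genes depended on genes of low level. Among genes that reach FPKM 1 in at least 3 libraries the all-gene median was -0.012 in HIGH versus CON and -0.027 in HIGH versus LOW. The set had -0.057 and -0.039 there. The limma 95% interval of the log2 fold change lay within -1 and 1 for 33 of 34 genes in LOW versus CON and for 31 of 34 in each of the other comparisons. ATG101 was the exception in all 3, and ULK1 and RB1CC1 in both comparisons with HIGH.

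**Figure D2:**
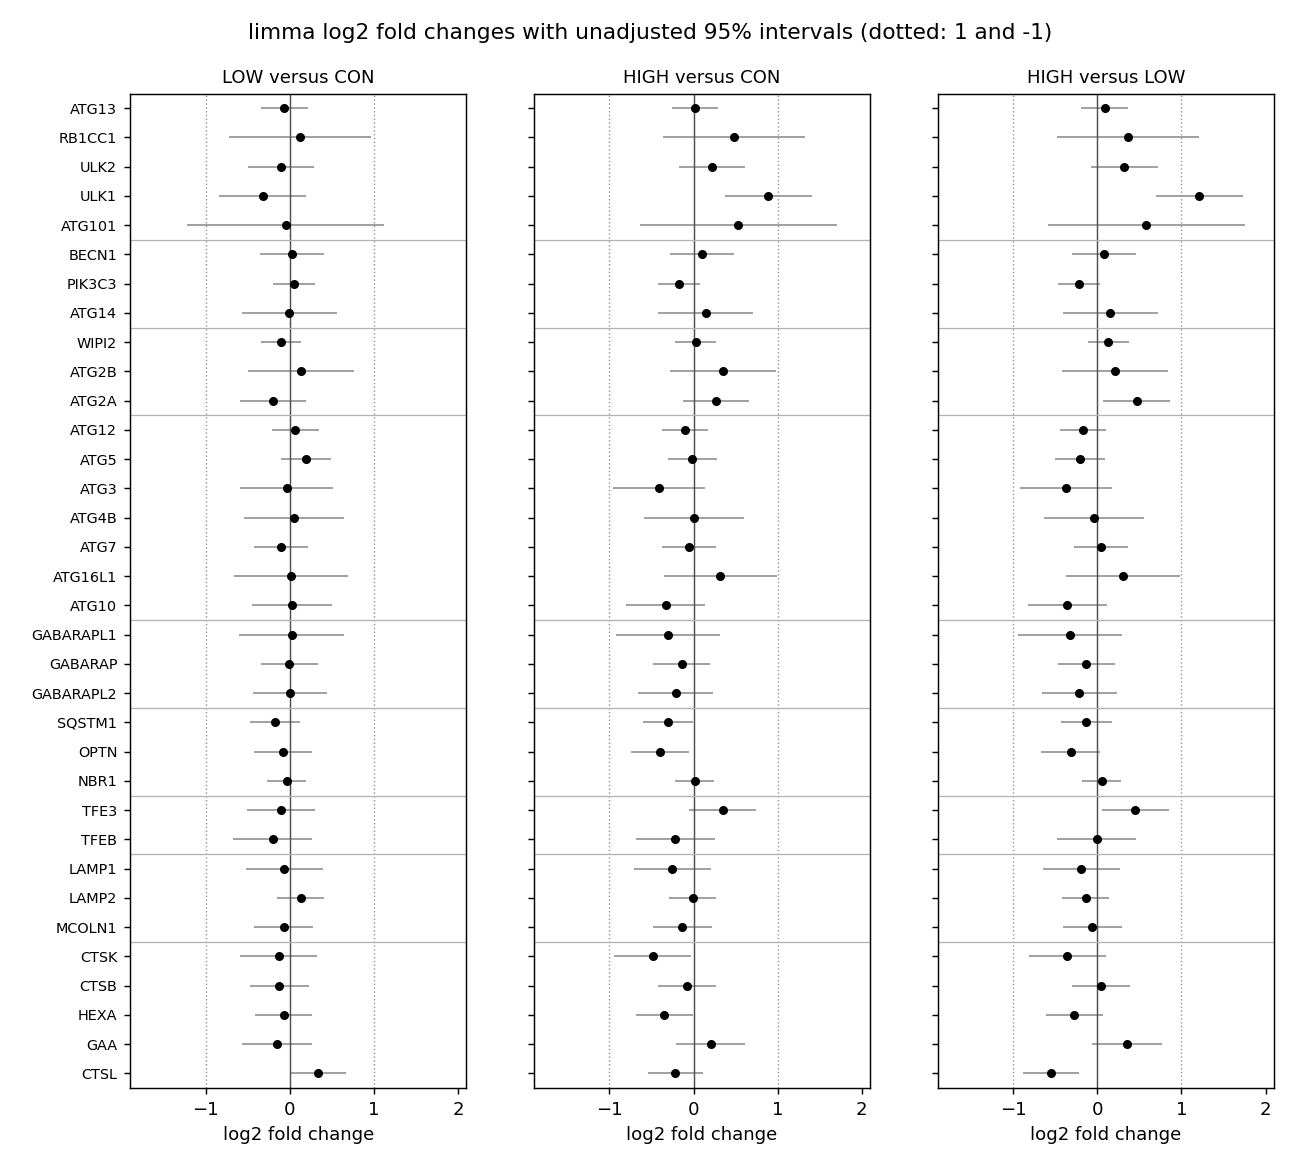
limma log2 fold changes of the 34 genes (points) with unadjusted 95% intervals (bars) in LOW versus CON, HIGH versus CON and HIGH versus LOW; the solid line marks 0 and the dotted lines 1 and -1. ULK1 stands out to the right in both comparisons with HIGH (0.89 and 1.21), and none of the intervals belongs to a gene with an adjusted p below 0.05.

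Some genes had groups that did not overlap. In LOW versus CON 2 genes (CTSL and ATG5) had every LOW library above every CON library, beside 3.0% of all genes, and 1 (SQSTM1) had every LOW library below, beside 3.06%. In HIGH versus CON only ULK1 lay above, beside 5.19%, and 3 genes (CTSK, SQSTM1 and PIK3C3) lay below, beside 4.19%. In HIGH versus LOW 4 genes (ULK1, ATG2A, WIPI2 and NBR1) lay above, beside 11.2%. Below lay 7 genes (CTSL, CTSK, HEXA, SQSTM1, OPTN, PIK3C3 and GABARAP), or 20.6% of the set, beside 7.77%. Some margins were narrow beside the library factors (0.939 to 1.11). The nearest HIGH and LOW libraries were at 191.1 and 192.4 for GABARAP, 192.4 and 195.5 for SQSTM1 and 31.33 and 31.27 for NBR1. Undoing the library factors makes HIGH and LOW overlap for these genes, so the counts depend on the scaling.

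The initiation complex came first in the order of the pathway. All 5 members were matched, and all 5 had a higher fitted level in HIGH than in CON (median log2 fold change 0.48) and than in LOW (median 0.36), though none was called. Over all genes 13705 of 24364 were higher in HIGH than in CON and 13525 were higher than in LOW. For ATG13 the sign in HIGH versus CON turned without scaling, with gene span as a covariate and without CON replicate 3, HIGH replicate 1 or HIGH replicate 2 (to -0.034 at the lowest), which left 4 of 5 higher. With the 2 outermost CON libraries (replicates 1 and 3) left out it was 5 of 5 again, with a median of 0.33.

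ULK1 (ENSOARG00000013499, chromosome 17, bases 44763719 to 44784955), the kinase that starts autophagosome formation, had the largest fitted difference of the 34. Its level was 5.26, 5.42 and 3.84 scaled FPKM in CON replicates 1 to 3, 3.87, 4.26 and 3.33 in LOW and 11.8, 9.37 and 6.47 in HIGH. All HIGH libraries lay above all others, and the HIGH libraries themselves differed 1.82-fold. The means were 4.84 ± 0.873 in CON, 3.82 ± 0.465 in LOW and 9.21 ± 2.67 in HIGH (SD, n = 3 each). The log2 fold change in HIGH versus LOW was 1.21 (SE 0.23, 95% interval 0.69 to 1.73; limma adjusted p = 0.565). In HIGH versus CON it was 0.89 (interval 0.37 to 1.41; limma adjusted p = 0.651), and in LOW versus CON -0.32 (interval -0.85 to 0.20; limma adjusted p = 1.00). Over the 19 alternative fits HIGH versus LOW stayed between 1.02 and 1.44, with adjusted p from 0.127 to 1.00. The difference from LOW was therefore larger than the spread between libraries for this gene taken alone and was not called after adjustment over all genes. Of the 9 stromal markers, 4 (COL1A1, COL1A2, COL3A1 and PDGFRA) had all HIGH libraries above the other 6. Over all genes 5.19% had HIGH above CON in all libraries and 11.2% had HIGH above LOW. The share with HIGH above both is not given here, so neither ULK1 nor these markers are read as unusual in this. COL1A1 was at 126, 72.7 and 38.8 in HIGH and 16.1 to 31.5 in the other groups. The markers did not move together, since within HIGH replicate 1 was the highest library for 5 of the 9 and the lowest for the other 4, among them TAGLN at 921, 1392 and 2118. Their part in the ULK1 values was not tested.

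ATG13 (ENSOARG00000003799, chromosome 15, bases 74812952 to 74857308), the regulatory subunit of the complex, was its most abundant member. It was at 32.6, 31.3 and 29.5 in CON, 30.7, 30.2 and 28.5 in LOW and 34.0, 34.1 and 27.2 in HIGH. The groups overlapped, and HIGH versus LOW gave 0.09 (interval -0.19 to 0.36). ULK2, the close relative of ULK1, ranged from 6.74 to 9.65 in CON, from 7.05 to 7.46 in LOW and from 7.45 to 10.6 in HIGH, with 0.22 in HIGH versus CON and 0.32 in HIGH versus LOW. The scaffold RB1CC1 (FIP200), picked out after its values were seen, varied most inside CON, at 22.3, 14.4 and 6.79, against 16.3, 13.3 and 12.9 in LOW and 23.2, 19.1 and 13.6 in HIGH. CON replicate 1 was 3.29-fold above CON replicate 3, a wider gap than that between any 2 group means of this gene. ATG101, a partner of ATG13, was the rarest gene of the set, between 0.266 and 0.839 in CON, between 0.330 and 0.615 in LOW and between 0.310 and 1.30 in HIGH.

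In the lipid kinase complex, which marks the site of membrane growth with a phosphoinositide, 3 of 5 members were matched. BECN1 (beclin, ENSOARG00000003698, chromosome 11, bases 42325756 to 42335782) was at 18.6, 15.8 and 13 in CON, 16.7, 15.0 and 16.0 in LOW and 20.1, 16.6 and 14.1 in HIGH. HIGH versus CON gave 0.10 (interval -0.28 to 0.48), and the sign of this small difference turned to -0.03 without CON replicate 3 or without HIGH replicate 1. PIK3C3 (ENSOARG00000005184, chromosome 23, bases 14061711 to 14216156), the catalytic subunit, was at 14.8, 14.6 and 16.2 in CON, 16.4, 15.4 and 15.2 in LOW and 12.5, 13.4 and 14.5 in HIGH. Every HIGH library lay below the other 6, but the gap was small, with -0.22 in HIGH versus LOW (interval -0.47 to 0.03; limma adjusted p = 0.633). ATG14, the targeting subunit, ranged from 1.87 to 3.75 in CON, from 2.23 to 2.98 in LOW and from 2.59 to 3.21 in HIGH.

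For the expansion step 3 of 4 members were matched, and all 3 had a higher fitted level in HIGH than in LOW, without a call. The direction was the same in each of the 19 alternative fits, several of which cannot change it. Over all genes 13525 of 24364 were higher in HIGH than in LOW. WIPI2 (ENSOARG00000003369, chromosome 24, bases 38899249 to 38922276), which reads the phosphoinositide mark, was at 22.1, 19.4 and 23.1 in CON, 19.3, 20.8 and 19.8 in LOW and 22.1, 22.1 and 21.4 in HIGH. The HIGH libraries were above the LOW libraries by little, with 0.13 (interval -0.11 to 0.37; limma adjusted p = 0.681). ATG2A (ENSOARG00000010760, chromosome 21, bases 42433259 to 42455169), which carries lipid into the growing membrane, was at 4.07, 4.47 and 4.88 in CON, 3.68, 4.25 and 3.69 in LOW and 6.64, 5.46 and 4.30 in HIGH. HIGH versus LOW gave 0.47 (SE 0.18, interval 0.07 to 0.86; limma adjusted p = 0.623). Its paralog ATG2B ranged from 5.55 to 13.4 in CON, from 9.0 to 11.3 in LOW and from 10.2 to 12.7 in HIGH, and CON alone covered the range of the other groups.

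The conjugation enzymes attach ATG8 proteins to the membrane, and all 7 members were matched. None of them was among the genes with an unadjusted p below 0.05. ATG12 (ENSOARG00000016432, chromosome 7, bases 4458675 to 4500581), a ubiquitin-like protein, was at 15.8, 16.3 and 19.4 in CON, 17.2, 18.3 and 18.3 in LOW and 14.6, 16.0 and 17.3 in HIGH. HIGH versus LOW gave -0.17 (interval -0.44 to 0.11). ATG10 (ENSOARG00000015475, chromosome 5, bases 79247125 to 79497895), the enzyme that joins ATG12 to ATG5, was at 4.34, 3.43 and 4.66 in CON, 3.88, 3.89 and 4.85 in LOW and 2.49, 4.10 and 3.34 in HIGH. It overlapped in all comparisons, with -0.36 in HIGH versus LOW (interval -0.83 to 0.11; limma adjusted p = 0.636). ATG5, the acceptor of ATG12, ranged from 12.7 to 15.5 in CON, from 15.8 to 16.6 in LOW and from 12.3 to 15.9 in HIGH. The protease ATG4B ranged from 4.70 to 10.0 in CON and the activating enzyme ATG7 from 5.75 to 6.18, and HIGH versus CON was 0.01 and -0.06 for them. ATG16L1, which places the complex on the membrane, ranged from 3.29 to 5.73 in CON, from 3.76 to 5.19 in LOW and from 3.41 to 7.51 in HIGH.

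ATG3, the enzyme that transfers ATG8 proteins to lipid, had 7 transcripts, as many as ATG4B and more than any other gene of the set, and its transcripts are described as an example chosen after the values were seen. The gene was at 6.92, 9.71 and 13.9 in CON, 8.86, 10.1 and 9.67 in LOW and 6.36, 6.65 and 9.33 in HIGH. Nearly all of that variation came from 1 transcript, ATG3-201, which was at 1.19, 5.39 and 10.1 in CON, 3.04, 5.30 and 4.51 in LOW and 0.750, 1.85 and 4.60 in HIGH. The other 6 transcripts together stayed between 3.79 and 5.82 in every library. ATG3-201 thus made 17.2%, 55.5% and 72.8% of the gene in CON, 34.3%, 52.5% and 46.6% in LOW and 11.8%, 27.8% and 49.4% in HIGH. The share was lowest in HIGH replicate 1 and highest in CON replicate 3, and the groups overlapped. In ATG4B the most abundant of 7 transcripts made 31.1% to 49.7% of the gene, a narrower range.

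**Figure D3:**
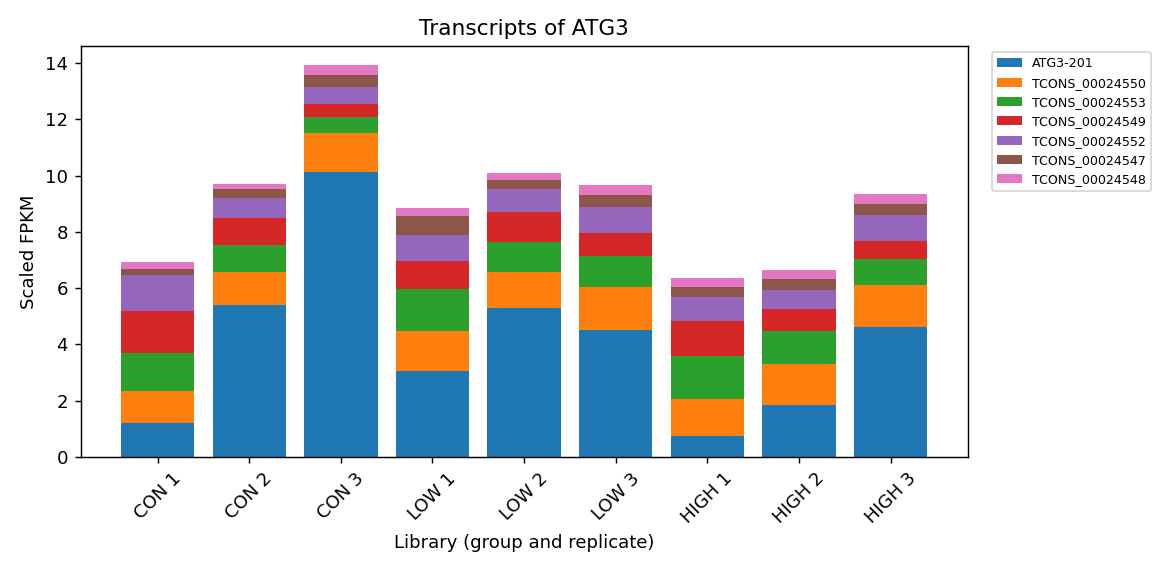
Scaled FPKM of the 7 ATG3 transcripts in each of the 9 libraries, stacked to the level of the gene. The lowest segment, ATG3-201, runs from 0.750 (HIGH replicate 1) to 10.1 (CON replicate 3), while the other 6 together stay between 3.79 and 5.82.

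The ATG8 proteins coat the membrane and hold cargo receptors, and the 3 GABARAP members were matched. All were abundant, and all had a lower fitted level in HIGH than in CON (median log2 fold change -0.21) and than in LOW (median -0.22). This direction held in each of the 19 alternative fits, several of which cannot change it, and no member was called. Over all genes 10657 of 24364 were lower in HIGH than in CON and 10839 were lower than in LOW. GABARAPL1 (ENSOARG00000021009, chromosome 3, bases 204403700 to 204411734) was at 197, 294 and 404 in CON, 266, 301 and 306 in LOW and 175, 232 and 307 in HIGH. The groups overlapped, since CON alone spanned 2.05-fold, and HIGH versus LOW was -0.33 (SE 0.28, interval -0.95 to 0.30; limma adjusted p = 0.684). GABARAP ranged from 167 to 241 in CON, from 192 to 207 in LOW and from 174 to 191 in HIGH, and GABARAPL2 from 77.3 to 121, 88.7 to 107 and 69.8 to 104. Their HIGH versus LOW values were -0.13 and -0.22.

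Cargo receptors link ubiquitin-marked material to the ATG8 coat, and they are themselves digested by autophagy. SQSTM1 (p62, ENSOARG00000002683, chromosome 5, bases 1120310 to 1128622) was at 205, 215 and 263 in CON, 196, 203 and 203 in LOW and 174, 183 and 192 in HIGH. The 3 groups did not overlap and were ordered CON, LOW, HIGH, with means of 227 ± 31.2, 200 ± 4.24 and 183 ± 8.97 (SD, n = 3 each). The gaps were narrow, with 204.8 against 203.2 between CON and LOW and 195.5 against 192.4 between LOW and HIGH. Undoing the library factors puts HIGH replicate 2 above LOW replicate 3, so the separation of LOW and HIGH depends on the scaling. HIGH versus CON gave -0.30 (SE 0.13, interval -0.604 to -0.00303; limma adjusted p = 0.651), HIGH versus LOW -0.13 and LOW versus CON -0.17. The 95% intervals of the latter 2 differences included 0. OPTN (optineurin, ENSOARG00000005206, chromosome 13, bases 26854293 to 26893965) was at 29.8, 33.5 and 42.4 in CON, 30.6, 34.7 and 33.6 in LOW and 23.4, 26.2 and 30.0 in HIGH. HIGH overlapped CON by 1 library, and the log2 fold change was -0.40 (SE 0.15, interval -0.75 to -0.05; limma adjusted p = 0.651). NBR1 was the steadiest receptor, between 30.1 and 34.6 in CON, between 30.5 and 31.3 in LOW and between 31.3 and 32.7 in HIGH.

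Of the transcription factors, TFE3 (ENSOARG00000011157, chromosome X, bases 52799964 to 52809312) was at 12.5, 11.3 and 8.67 in CON, 9.63, 11.6 and 8.77 in LOW and 14.7, 14.8 and 11.6 in HIGH. HIGH and LOW met at 11.6, and HIGH versus LOW gave 0.45 (SE 0.18, interval 0.05 to 0.85; limma adjusted p = 0.627). TFEB was less abundant, between 1.82 and 2.69 in CON, between 1.71 and 2.14 in LOW and between 1.53 and 2.10 in HIGH, with -0.01 in HIGH versus LOW (interval -0.48 to 0.46).

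The lysosomal membrane proteins showed little difference. LAMP1 (ENSOARG00000008215, chromosome 10, bases 85930276 to 85936337), a major glycoprotein of the membrane, was at 130, 162 and 222 in CON, 148, 171 and 160 in LOW and 120, 139 and 164 in HIGH. HIGH versus CON was -0.26 (interval -0.71 to 0.20; limma adjusted p = 0.652), with all 3 groups overlapping. LAMP2 ranged from 118 to 139 in CON, from 138 to 143 in LOW and from 115 to 141 in HIGH, and its HIGH versus CON value was -0.01 (interval -0.29 to 0.27). The calcium channel MCOLN1, which senses the state of the lysosome, ranged from 15.9 to 18.7, 14.9 to 18.4 and 12.7 to 17.9.

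Among the lysosomal enzymes 5 of 6 were matched. CTSL (cathepsin L, ENSOARG00000008683, chromosome 2, bases 31785406 to 31790389), a cysteine protease, was at 4.13, 4.88 and 4.83 in CON, 5.88, 6.23 and 5.42 in LOW and 3.51, 3.88 and 4.52 in HIGH. LOW lay above both other groups in all libraries, with means of 4.61 ± 0.419 in CON, 5.84 ± 0.407 in LOW and 3.97 ± 0.512 in HIGH (SD, n = 3 each). HIGH versus LOW gave -0.55 (SE 0.15, interval -0.88 to -0.22; limma adjusted p = 0.601) and LOW versus CON 0.34 (interval 0.01 to 0.67; limma adjusted p = 1.00). Over the 19 alternative fits HIGH versus LOW stayed between -0.65 and -0.46, with an unadjusted p below 0.05 in all of them. CTSK (cathepsin K, ENSOARG00000020869, chromosome 1, bases 99667716 to 99677407), a collagen-degrading protease, was the most abundant gene of the set, at 372, 456 and 631 in CON, 418, 441 and 443 in LOW and 293, 363 and 366 in HIGH. Every HIGH library lay below the other 6, narrowly against CON replicate 1, and HIGH versus CON gave -0.49 (SE 0.20, interval -0.95 to -0.03; limma adjusted p = 0.651).

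The remaining enzymes went different ways. HEXA, a subunit of the hexosaminidase that degrades gangliosides, ranged from 32.7 to 46.9 in CON, from 34.8 to 37.4 in LOW and from 26.9 to 33.4 in HIGH, with -0.35 in HIGH versus CON (limma adjusted p = 0.651). GAA, which breaks down glycogen in the lysosome, ranged from 4.99 to 5.46, 4.38 to 5.14 and 4.56 to 7.54, with 0.35 in HIGH versus LOW (interval -0.06 to 0.77). CTSB (cathepsin B) ranged from 203 to 293, 209 to 233 and 216 to 232, and the log2 fold changes lay between -0.12 and 0.04 in the 3 comparisons.

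**Figure D4:**
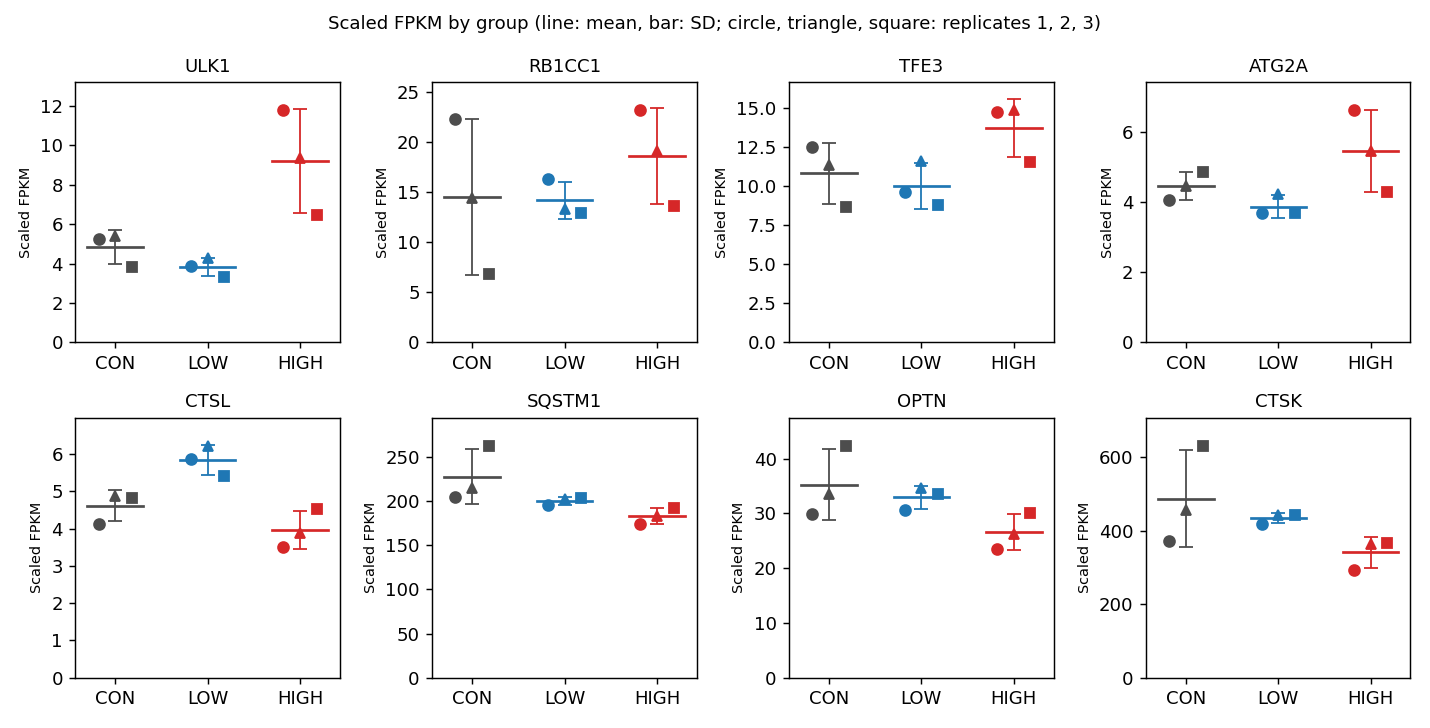
Scaled FPKM of 8 genes in each library (circle, triangle and square for replicates 1, 2 and 3), with the mean (line) and SD (bar, n = 3) of CON, LOW and HIGH; RB1CC1 was added after its values were seen. ULK1 is higher in all HIGH libraries (6.47 to 11.8 against at most 5.42), CTSL is highest in LOW (5.42 to 6.23), and SQSTM1 and CTSK lie lower in HIGH.

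The 34 levels were also summed within each library. The sum was 1810, 2117 and 2658 scaled FPKM in CON, 1979, 2132 and 2105 in LOW and 1689, 1882 and 2002 in HIGH. The means were 2195 ± 429, 2072 ± 81.6 and 1857 ± 158 (SD, n = 3 each), and CON covered most of the range of the others. The means spanned 337, which did not pass an exact permutation test that took all 280 divisions of the libraries into 3 equal groups (two-sided p = 0.361). Without scaling the span was 393 and the same exact test gave p = 0.0214, and without CON replicate 1 the span was 530 with an exact p = 0.0179, so this result rests on the scaling and on 1 library.

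Differences between libraries of the same group were large beside those between groups. The highest library was a median of 1.43-fold above the lowest in CON, 1.15-fold in LOW and 1.30-fold in HIGH, and 7 genes differed more than 2-fold inside CON, 0 inside LOW and 2 inside HIGH. This spread had a pattern, looked for after the values were seen. In 17 of 34 genes CON replicate 1 was the lowest CON library, replicate 2 the middle and replicate 3 the highest, an order that 28.4% of all genes showed. In 10 genes the order was the opposite, beside 38.0% of all genes. The first kind held all 3 ATG8 members, all 3 lysosomal membrane proteins and 4 of 5 lysosomal enzymes, and the second held 4 of 5 initiation genes and 2 of 3 genes of the lipid kinase complex. HIGH replicate 3 was above HIGH replicate 1 in 14 of the 17 genes and below it in all 10 of the others. The share of all genes with this order in HIGH is not given here, so it is not read as particular to the set.

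The same division met the comparison of HIGH with LOW, which uses no CON library. Of the 17 genes with CON replicate 3 highest, 14 had a lower fitted level in HIGH than in LOW, and over all genes with that order 5250 of 6927 did. Of the 10 genes with CON replicate 1 highest, all 10 had a higher level in HIGH than in LOW, and over all genes 7395 of 9268 did. The median genomic span was 11917 bases in the 17 genes and 31942 bases in the 10. As a measure of each library, the median centred log2 level of genes in the quartile of longest genomic span minus that in the quartile of shortest span was 0.13, -0.03 and -0.26 in CON, 0.03, -0.07 and 0.00 in LOW and 0.09, 0.05 and -0.06 in HIGH. With this measure as a covariate 0 of 34 genes were called in any comparison. The part of this library difference in the direction of each role group was not tested.

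**Figure D5:**
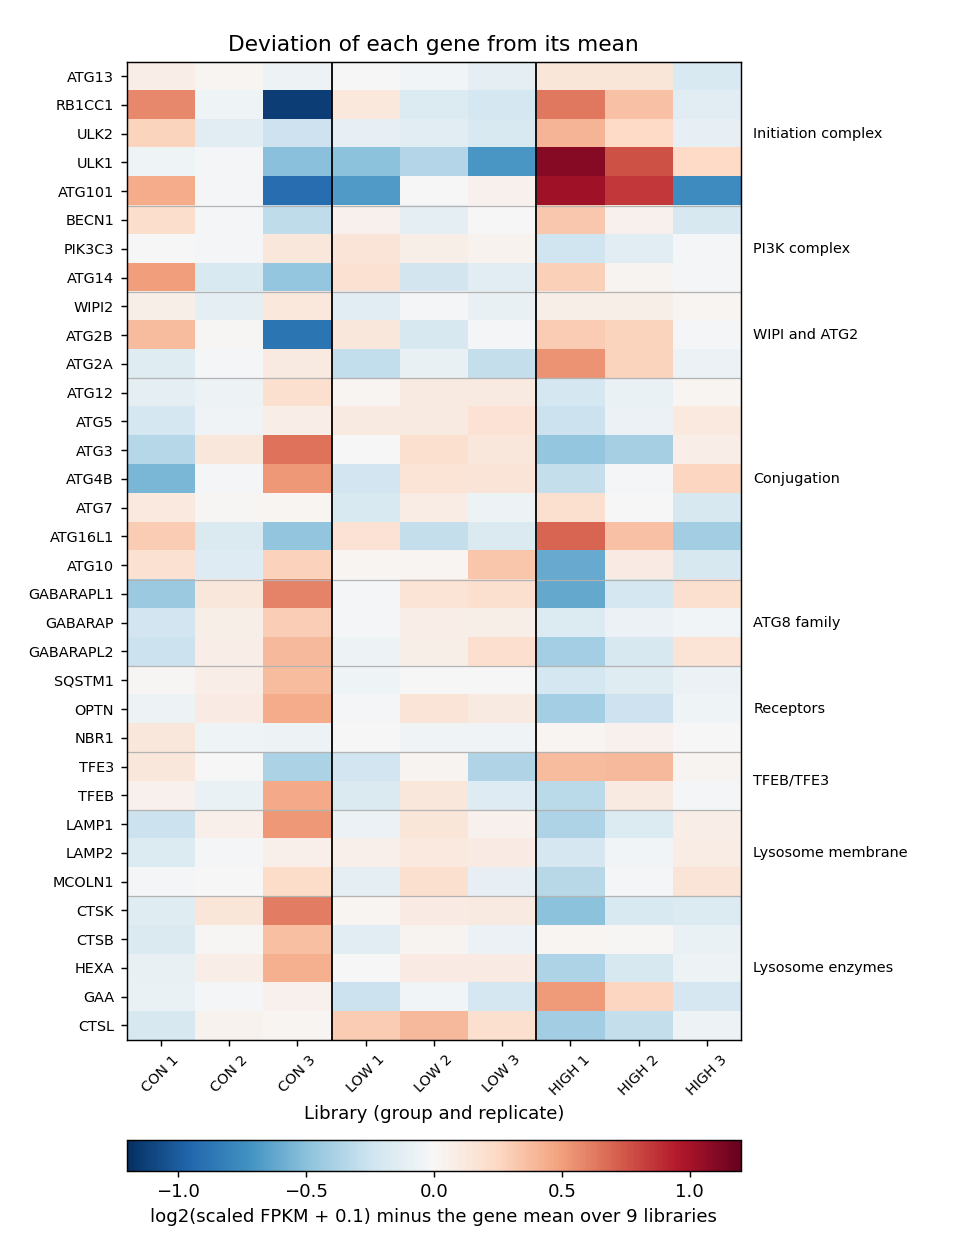
Deviation of each gene in each library from its mean over the 9 libraries, as log2(scaled FPKM + 0.1), red above and blue below the mean, with vertical lines between CON, LOW and HIGH. RB1CC1, ATG2B and ATG101 are high in CON replicate 1 and low in CON replicate 3, the GABARAP genes, LAMP1 and CTSK show the opposite, and HIGH replicate 1 resembles CON replicate 1 in most of these.

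Further genes of the pathway were examined in 5 lists, of which 113 genes were tested and 0 were called in any comparison (smallest limma adjusted p 0.601). Of 25 nutrient-sensing genes around mTORC1 and AMPK 11 were higher and 14 lower in HIGH than in LOW, with a median log2 fold change of -0.07. The nutrient-sensing genes with the smallest F-test p were STK11, the kinase upstream of AMPK, and TSC2, an inhibitor of mTORC1. STK11 was at 6.26, 6.17 and 7.45 in CON, 5.75, 6.43 and 6.37 in LOW and 8.39, 8.32 and 8.01 in HIGH, with HIGH above all others (0.41 in HIGH versus LOW, limma adjusted p = 0.601). Of the 25 genes 1 had every HIGH library above CON and 3 had every HIGH library above LOW, beside 5.19% and 11.2% of all genes. TSC2 was at 4.03, 3.76 and 3.40 in CON, 3.45, 3.39 and 3.25 in LOW and 8.25, 5.59 and 3.94 in HIGH (0.74; limma adjusted p = 0.601), with HIGH replicate 3 inside the CON range.

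Of 25 other autophagy genes 8 were higher and 17 lower in HIGH than in LOW (median -0.15). BNIP3, a mitochondrial receptor for autophagy, was at 29.0, 40.1 and 39.1 in CON, 49.7, 56.3 and 54.5 in LOW and 44.5, 48.0 and 45.2 in HIGH. CON lay below both glucose groups, with 0.58 in LOW versus CON (limma adjusted p = 1.00) and 0.36 in HIGH versus CON (limma adjusted p = 0.651). Of the 25 genes 2 had every LOW library above CON and 1 had every HIGH library above CON, beside 3.0% and 5.19% of all genes. NRBF2, a regulator of the lipid kinase complex, was at 8.50, 8.01 and 8.00 in CON, 8.56, 8.34 and 7.54 in LOW and 6.39, 6.16 and 6.59 in HIGH. HIGH lay below the other 6 libraries, with -0.35 in HIGH versus CON (limma adjusted p = 0.651). Of the 25 genes 3 had every HIGH library below CON and 9 had every HIGH library below LOW, beside 4.19% and 7.77% of all genes.

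In the lysosomal lists most genes lay slightly lower in HIGH than in CON. This held for 11 of 17 membrane and fusion genes (median -0.09), 23 of 32 other hydrolases (median -0.11) and 8 of 14 subunits of the V-ATPase, the proton pump that acidifies the lysosome (median -0.15). The median over all genes was 0.07, and -0.012 over genes that reach FPKM 1 in at least 3 libraries. Over all genes 10657 of 24364 were lower in HIGH than in CON. In LOW versus CON 12 of 17, 26 of 32 and 6 of 14 were lower (medians -0.08, -0.09 and 0.03). In HIGH versus LOW 9 of 17, 19 of 32 and 9 of 14 were lower (medians -0.09, -0.04 and -0.17). The membrane and hydrolase lists thus lay slightly below CON in both glucose groups, not in HIGH alone. Of the 17 membrane and fusion genes 6 were higher in HIGH than in CON and 8 were higher in HIGH than in LOW. NPC1, the cholesterol exporter of the lysosome, was among these. It was at 6.52, 5.63 and 5.33 in CON, 5.30, 4.66 and 4.06 in LOW and 11.5, 8.33 and 5.99 in HIGH (0.83 in HIGH versus LOW, limma adjusted p = 0.601). PLEKHM1, an adaptor for lysosome fusion, was at 6.64, 5.99 and 4.50 in CON, 4.76, 5.10 and 4.38 in LOW and 8.17, 7.51 and 5.90 in HIGH. HIGH lay above LOW and overlapped CON. Of the 17 genes 3 had every HIGH library above LOW, beside 11.2% of all genes. Among the hydrolases and pump subunits, the genes with the smallest F-test p had lower fitted levels in HIGH. CTSO (cathepsin O) was at 4.45, 4.10 and 4.24 in CON, 3.98, 3.89 and 3.92 in LOW and 3.25, 3.54 and 3.48 in HIGH, with no overlap between groups and a log2 fold change of -0.31 in HIGH versus CON. LGMN (legumain, an asparaginyl protease) was at 62.7, 77.7 and 102 in CON, 67.5, 77.9 and 75.7 in LOW and 47.9, 56.9 and 69.6 in HIGH, where HIGH replicate 3 overlapped both other groups. Of the pump subunits, ATP6V1C1 was at 34.2, 31.9 and 31.4 in CON, 30.5, 30.3 and 30.3 in LOW and 25.1, 29.7 and 27.3 in HIGH. ATP6V0D1 was at 58.5, 63.2 and 79.8 in CON, 60.0, 65.6 and 59.7 in LOW and 51.2, 55.5 and 56.1 in HIGH. HIGH lay below the other 6 libraries for both, with -0.25 and -0.30 in HIGH versus CON (limma adjusted p = 0.651 for each). Every HIGH library lay below CON for 3 of 32 other hydrolases and 2 of 14 pump subunits, beside 4.19% of all genes. The counts below LOW were the same, 3 of 32 and 2 of 14, beside 7.77% of all genes.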

How the data were processed

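The authors trimmed and filtered paired reads from rRNA-depleted total RNA, aligned them (Hisat2 in the paper), built transcripts (Stringtie) and deposited FPKM for transcripts and for genes. The processing records of the samples also name STAR 2.5.1b, TopHat and TopHat2, so the aligner behind the deposited values is not settled here. The build behind the coordinates is not given in the sources used here. The deposited gene read-count table was read as a score, since its values were FPKM times the genomic span times a library factor (100% of the 4517 to 4623 single-transcript genes within 3%). Its factors gave the depth: an FPKM of 1 stood for 48.0 to 71.3 fragments per kilobase. No count test was run. All columns used had a sample (0 without one).

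FPKM were divided by a library factor, the median of genes that reach FPKM 1 in all libraries (0.939 to 1.11). Genes that reach FPKM 0.1 in 3 or more libraries and span 300 bases or more were fitted on log2(FPKM + 0.1) with limma 3.58.1 in R 4.3.3, with the spread following mean expression, all 9 libraries and no block, and BH over all genes. The call needed no minimum fold, where the authors' DESeq2 test asked for a fold above 2 as well. Of the members, 25 had 1 transcript; in ATG12, ATG7, HEXA and MCOLN1 an antisense transcript was part of the gene sum, at most 6.99%. Summaries used Python 3.11.15. The procedure was tested on simulated data.

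Values in every library were given for the most abundant member and the member with the smallest F-test p in each role, and for the 2 such genes of each further list; others are named as chosen after their values were seen or by ranges. The members and all lists were chosen with earlier results of these data known. Alternatives were the pseudocount, filters, scaling, the groups in the fit, a replicate block, summed rows, a fold limit and each library left out; added after seeing the data were 2 CON libraries left out and a span covariate.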

Additional observations from a re-analysis of the deposited data

How the results depend on the processing

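Taking each alternative setting with each comparison and the F-test gave 78 results, and limma called 0 of the 34 genes in all of them (smallest adjusted p 0.127). These are not 78 separate fits, since 1 setting serves several comparisons. The fold limit could only keep a count of 0 at 0. The calls over all genes ranged from 1 to 8 a result, beside 2 in each comparison of the fit reported. With the replicate number as a block 0 of 34 were called in HIGH versus LOW (smallest limma adjusted p 0.135, against 0.565 without the block). In HIGH versus CON 0 of 34 were called (0.190, against 0.651), and 4 genes over the whole table. Same-numbered libraries of different groups had correlations of -0.03 to 0.42 over 9 pairs, and different-numbered ones of -0.44 to 0.15. Of the 9 libraries 6 correlated best with their own number. The labels do not say whether the numbers mark pairs, so the main fit had no block, and a pairing remains possible. The member median of LOW versus CON was -0.14 without scaling (all genes -0.09), and that of HIGH versus CON -0.12 without CON replicate 1 (all genes 0.11). Leaving out 1 library gave medians of -0.08 to -0.02 (LOW versus CON), -0.123 to -0.0182 (HIGH versus CON) and -0.10 to 0.04 (HIGH versus LOW). The span of summed FPKM was 393 without scaling (exact p = 0.0214) and 214 to 530 with 1 library left out, 530 without CON replicate 1 (exact p = 0.0179). BECN1 in HIGH versus CON turned to -0.0239 with the span covariate, to -0.0310 without CON replicate 3 and to -0.0293 without HIGH replicate 1 (0.227 at most with 1 library left out); the cause was not tested. For the 15 genes with values in every library, each in 1 comparison, the other 282 values kept their direction. Many of these come from settings that cannot change the fitted difference. Over all 34 genes the sign turned in some fit for 25 in LOW versus CON, 14 in HIGH versus CON and 6 in HIGH versus LOW. The count tests (edgeR, DESeq2) were not run, since the table of read counts holds rescaled FPKM. Genes near 0.1 FPKM rest on few fragments.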
